A study of Homo sapiens with 6 samples.

Results

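The genes described here are 38 genes of the endoplasmic reticulum (ER) stress response and the integrated stress response, looked up by name in HepG2 cells, a human hepatoblastoma line. They comprise 19 ER chaperones, folding factors and genes of ER-associated degradation, 5 sensors and transcription factors, and 14 genes of the kind that the transcription factor ATF4 induces, ATF4 included. Of the 38 genes, 37 had a probe set that carries their symbol alone, out of 19775 genes with such a probe set, and SYVN1, a ubiquitin ligase of ER-associated degradation, had none. The probe set with the highest mean signal stood for each gene, and 35 members had a mean signal above a floor of 12.9, the median of all signals, and were tested among 11921 genes. CHAC1, an enzyme that degrades glutathione, had signals of 2.4 to 8.2, all under the floor, and CREB3L3, a liver transcription factor held in the ER membrane, had signals of 8.1 to 19.9 and a mean that did not pass it.

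Before stimulation the cells had received either control siRNA (siControl) or siRNA directed at the nuclear receptor HNF4A, which maintains liver gene expression (siHNF4A). They were then stimulated with TGF-beta, a cytokine, at a dose of 3 ng/ml, and RNA was taken at 1.5 and 24 h and from unstimulated cells (0 h). The 6 groups have 1 Affymetrix array each and no replicates. The questions that the design poses are which genes differ between the siRNAs, which differ after TGF-beta, and whether the second difference depends on the first. As the later arrays all carry TGF-beta, the cytokine and elapsed time in culture cannot be told apart. The HNF4A transcript was not analysed here, and the siRNA labels were not checked by their target.

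Unfolded protein in the ER is sensed by 3 membrane proteins, encoded by ERN1 (IRE1), ATF6 and EIF2AK3 (PERK). IRE1 splices the XBP1 transcript and ATF6 is cleaved to an active factor, and both outputs raise chaperones and degradation genes. PERK, like the other kinases of the integrated stress response, phosphorylates the initiation factor eIF2, which lowers general translation and favours ATF4, an inducer of amino acid synthesis and transport genes. Hepatocytes secrete large amounts of plasma protein and hold an extensive ER.

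Promoter stretches are shown first because the groups of members differ in a known element. The ER stress response element (ERSE), bound by NF-Y together with ATF6 or XBP1, was searched as CCAAT and CCACG with 9 bases of any kind between them. Its second form (ERSE-II) was searched as ATTGG and CCACG with 1 base between them. Both strands were searched in RefSeq windows from 250 bases before to 50 after a start (build GRCh38.p14). Some genes had several starts (35116 windows for 27305 genes), and a match in any window of a gene counted. One of the forms was present in 9 of the 18 chaperone, folding and degradation genes with a window, in XBP1 among the 5 sensors and factors, and in none of the 14 ATF4-type genes. Among 27305 genes with a window 44 (0.161%) held it. The stretches of 100 bases below run 5′ to 3′ on the gene's strand, and capitals mark the fixed letters of the element or, for HYOU1, CRELD2 and SDF2L1, of its reverse complement. The first 5 belong to genes that were called higher with siHNF4A, CRELD2 and SDF2L1 were called lower at 24 h, and ASNS stands for the ATF4-type genes. The element was also found in HSP90B1, CALR and CANX, which were not called in any comparison, and neither form was found in DNAJB9, DNAJB11 and MANF, which were called higher with siHNF4A.
XBP1: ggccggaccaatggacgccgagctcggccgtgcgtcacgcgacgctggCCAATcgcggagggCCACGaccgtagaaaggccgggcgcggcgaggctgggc
HSPA5: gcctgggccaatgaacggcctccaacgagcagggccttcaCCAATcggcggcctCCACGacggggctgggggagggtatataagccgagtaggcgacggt
PDIA6: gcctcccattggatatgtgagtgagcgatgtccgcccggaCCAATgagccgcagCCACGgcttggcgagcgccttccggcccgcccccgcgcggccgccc
HYOU1: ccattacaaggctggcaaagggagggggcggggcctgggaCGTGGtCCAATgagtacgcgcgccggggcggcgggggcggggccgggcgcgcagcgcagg
HERPUD1: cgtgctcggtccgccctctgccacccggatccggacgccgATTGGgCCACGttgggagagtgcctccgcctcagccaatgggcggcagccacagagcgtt
CRELD2: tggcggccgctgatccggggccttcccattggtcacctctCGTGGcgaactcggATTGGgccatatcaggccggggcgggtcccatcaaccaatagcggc
SDF2L1: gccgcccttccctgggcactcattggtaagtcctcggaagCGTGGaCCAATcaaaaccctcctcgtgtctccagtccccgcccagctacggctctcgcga
ASNS: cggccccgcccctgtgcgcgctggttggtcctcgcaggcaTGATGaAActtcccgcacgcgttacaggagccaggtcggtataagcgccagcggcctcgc
The stretch of XBP1 lies at chr22:28800570-28800669 on the minus strand, and its element begins 52 bases before the start. Those of HSPA5 (chr9:125241350-125241449, minus strand) and PDIA6 (chr2:10812812-10812911, minus strand) hold the same form. The second form stands in HYOU1 (chr11:119057225-119057324, minus strand) and HERPUD1 (chr16:56931985-56932084, plus strand). The stretch of CRELD2 (chr22:49918514-49918613, plus strand) holds the first form and that of SDF2L1 (chr22:21642074-21642173, plus strand) the second. In ASNS (chr7:97872417-97872516, minus strand) the capitals mark TGATGNAA, a core of the C/EBP-ATF element that ATF4 binds, which was found in 4 of the 14 ATF4-type genes (CHAC1, ASNS, CEBPG and SLC3A2), in HERPUD1, and in 4.46% of all genes with a window. TGACGTGG, the core of another element of the unfolded protein response, was found in HYOU1 alone among the members and in 0.927% of all genes. The stretches of PDIA6 and ASNS belong to starts that lie inside the annotated span of the gene. A match of letters is a description and does not show that a factor was bound.

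The array medians lay between 12.4 and 13.3, and 49.1% to 50.7% of the probe sets of an array exceeded the floor. A control probe set for ribosomal RNA stood at 8600 on the siControl 0 h array and at 69.8 to 736.5 on the other arrays, so the counts of called genes in the fits that use it are also given without it. The 8 hepatocyte markers were above the floor on all arrays, with summed signals of 44155 to 51859. Of the 8, TTR was called lower and FGB higher with siHNF4A (adjusted p = 0.0114 and 0.00089, limma), and at 24 h against 0 h TTR and FGB were called lower and SERPINA1 higher (adjusted p = 0.0184, 0.00509 and 0.0183, limma). Of 7 markers of blood, endothelial and fibroblast cells 4 were at or under the floor on all arrays, and the summed signal of the 7 was 75.6 to 165.2. The endothelial marker PECAM1, at 47 to 127.2, was called higher at 24 h (adjusted p = 0.0221, limma). The part of these markers in the results below was not tested. In RNA of whole cultures, fewer cells that express a gene and less of its RNA per cell cannot be told apart. The log2 signals of the 35 tested members on the 6 arrays are drawn around each gene's own mean.

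**Figure D1:**
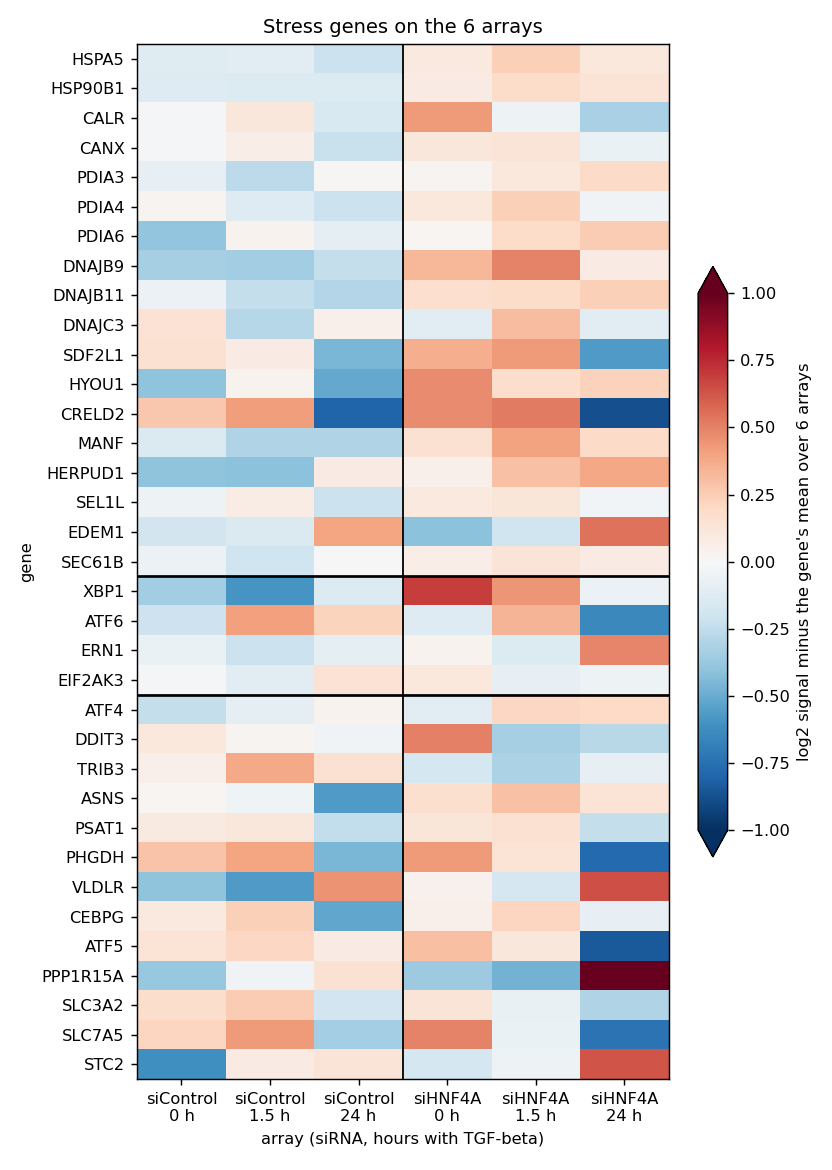
The log2 MAS5 signal of each tested member (rows, in 3 blocks by role) on each of the 6 arrays (columns), minus the gene's mean over the arrays; the colour scale ends at 1 and -1. In the upper block most cells are red in the siHNF4A columns, and CRELD2 and SDF2L1 are blue in both 24 h columns.

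With siHNF4A, 8 of the 35 tested members rose and 1 fell against siControl, and 7 of the 8 belonged to the chaperone, folding and degradation genes. Over all 11921 genes 3.9% were called higher and 4.16% lower. The difference was the mean of 3 times on the log2 scale, with its standard error from an additive limma fit and a Benjamini-Hochberg adjusted p over all tested genes. Because no group had a replicate, the error starts from the disagreement of the difference between times. limma then draws it towards the spread of all tested genes at like signal (the prior). The prior weighed more, with 12.6 degrees of freedom against 2, so the error is mostly not the gene's own. Of 18 chaperone, folding and degradation genes 7 rose and none fell, with a median difference of 0.21 against -0.04 over all genes, and 17 of the 18 lay above 0 against 43.9% of all genes. Members were brighter than most genes, with a median mean signal of 556 against 151. Among genes with a mean signal above 100, which included 30 of the members and all 9 that were called, 5.65% were called higher and 5.3% lower.

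HSPA5 encodes BiP, the principal ER chaperone of the HSP70 family and a regulator of the sensors. Its signals were 5137, 5204 and 4806 with siControl at 0, 1.5 and 24 h and 5984.5, 6613 and 6016 with siHNF4A. All siHNF4A arrays stood above all siControl arrays, and the difference was 0.30 ± 0.08 (adjusted p = 0.0249, limma). Both of the next genes encode J-domain partners of BiP. DNAJB9, which delivers BiP to clients and to IRE1, had signals of 429.9, 426 and 459 with siControl and 680, 765 and 573 with siHNF4A, and rose by 0.61 ± 0.12 (adjusted p = 0.00723, limma). DNAJB11, which assists the folding of secreted proteins, had signals of 1455, 1284 and 1233 with siControl and 1699, 1719 and 1781 with siHNF4A, and rose by 0.39 ± 0.10 (adjusted p = 0.0209, limma). On these probe sets the groups did not overlap for either gene. A second probe set of DNAJB9 had 279.8, 222.5 and 322.9 with siControl and 318.2, 361.2 and 298.9 with siHNF4A. Its groups overlapped, it was lower with siHNF4A at 24 h, and its mean difference was 0.26. A dimmer probe set of DNAJB9 (mean signal 117.8) had groups apart and a difference of 0.65. DNAJC3, a further J-domain protein of the ER, had differences of opposite signs between times and was not called (0.06 ± 0.15, adjusted p = 0.882, limma).

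HYOU1, a large chaperone that exchanges the nucleotide of BiP, had signals of 549, 746 and 510.2 with siControl and 1007, 823 and 851 with siHNF4A. The groups were apart at every time, least at 1.5 h, and the difference was 0.58 ± 0.13 (adjusted p = 0.0136, limma). MANF, an ER-resident factor that is secreted under stress, had signals of 857, 767 and 769.7 with siControl and 1050.2, 1248 and 1079.5 with siHNF4A. It was higher on every siHNF4A array, by 0.49 ± 0.11 (adjusted p = 0.0104, limma). PDIA6, a disulfide isomerase that also restrains IRE1, had signals of 2881, 3883 and 3556 with siControl and 3858, 4314 and 4520.4 with siHNF4A. Its groups overlapped, since the siHNF4A 0 h array lay below the siControl 1.5 h array, and it rose by 0.31 ± 0.08 (adjusted p = 0.0359, limma).

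Among degradation genes, HERPUD1, a membrane protein of the complex that returns misfolded proteins to the cytosol, had signals of 1162.5, 1155 and 1621 with siControl and 1590.2, 1874 and 1999.9 with siHNF4A. It was higher with siHNF4A at every time and rose by 0.48 ± 0.10 (adjusted p = 0.0076, limma), while its siControl 24 h array exceeded its siHNF4A 0 h array. SEL1L, the partner of SYVN1, differed by 0.13 ± 0.10 and EDEM1, which marks misfolded glycoproteins for disposal, by -0.05 ± 0.13 (adjusted p = 0.543 and 0.893, limma).

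The remaining 8 tested chaperone and folding genes, among them the lectin chaperones CALR and CANX and the disulfide isomerases PDIA3 and PDIA4, differed by 0.03 to 0.27 and were not called. HSP90B1, the HSP90 of the ER, came nearest, with 1456, 1454 and 1448.5 with siControl and 1688, 1809 and 1752 with siHNF4A. Its groups did not overlap, but the difference of 0.27 ± 0.09 did not pass (adjusted p = 0.0877, limma). A second, dimmer probe set of HSP90B1 (mean signal 162.5) went the other way, at -0.17. PDIA3 and SEC61B, a subunit of the translocation channel, also had all siHNF4A signals above all siControl signals. In all, 10 of the 35 members had non-overlapping groups with siHNF4A higher and 1 with siHNF4A lower, against 7.12% and 10.3% of all tested genes. Of the 35, 19 were higher at all 3 times and 2 lower at all 3, against 17.5% and 23.7% of all tested genes.

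**Figure D2:**
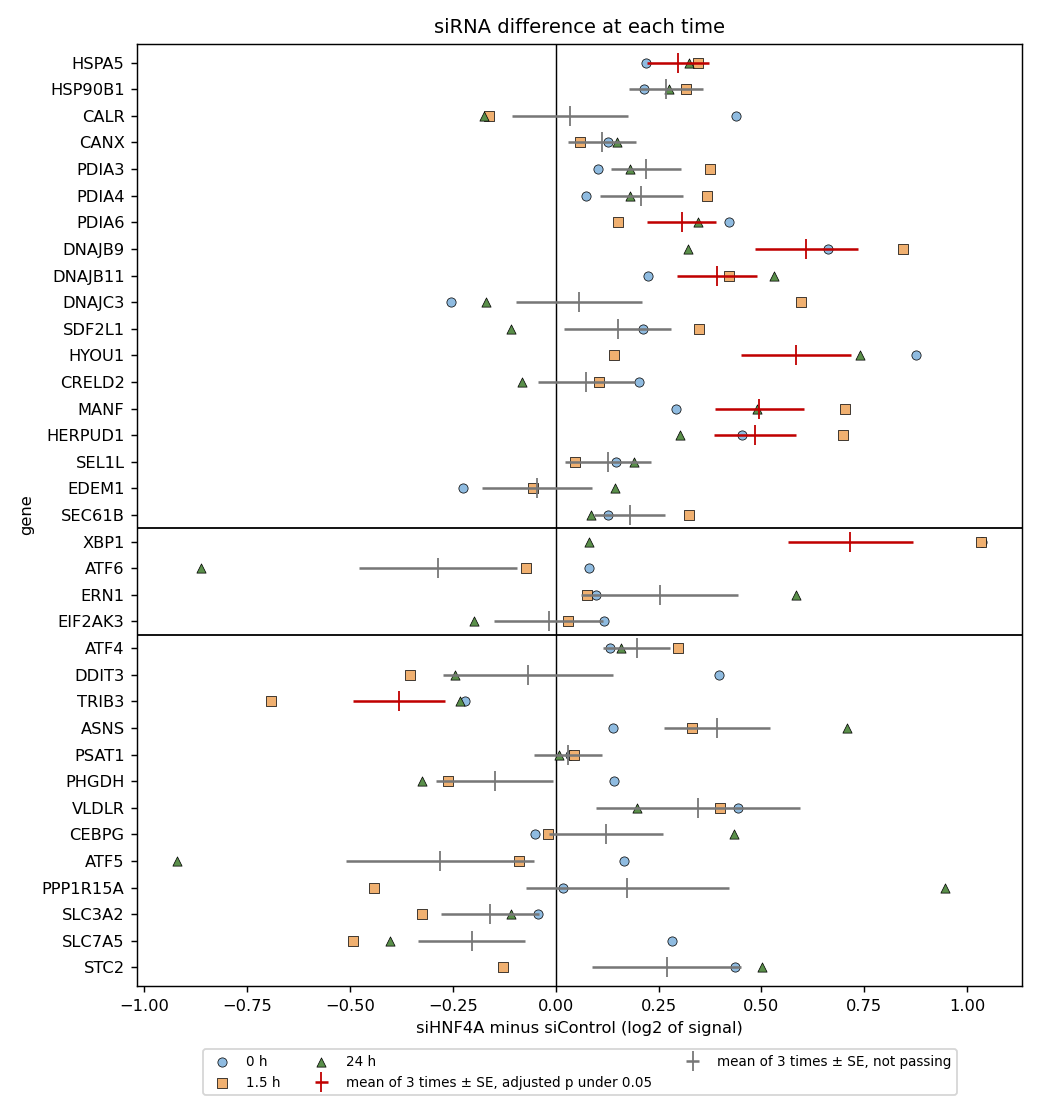
The siHNF4A minus siControl difference of each tested member (log2 of signal, x axis) at 0 h (circles), 1.5 h (squares) and 24 h (triangles), with the mean of the 3 times and limma's standard error as a bar, red where the adjusted p was under 0.05. The 3 symbols of 13 of the 18 genes in the upper block lie right of 0, and the 24 h triangle of XBP1 lies at 0.08, apart from its other symbols at 1.04 and 1.03.

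Of the sensors and factors, XBP1 rose and the other 3 tested genes were not called. XBP1, whose spliced form is the transcription factor made by IRE1, had signals of 932, 785 and 1076.5 with siControl and 1912, 1606 and 1138 with siHNF4A. The gap was 2.05-fold at 0 h, 2.05-fold at 1.5 h and 1.06-fold at 24 h, and the mean difference was 0.72 ± 0.15 (adjusted p = 0.0085, limma). XBP1 was the one member past 2-fold between the siRNAs on single arrays, at 0 h and at 1.5 h, where 1.47% and 1.54% of all tested genes were higher by 2-fold. At 24 h no member was past 2-fold between the siRNAs, and 5.28% of all tested genes were. The arrays report the total XBP1 signal, and its splicing was not measured. ATF6, ERN1 and EIF2AK3 differed by -0.29 ± 0.19, 0.25 ± 0.19 and -0.02 ± 0.13.

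Of the 13 tested ATF4-type genes none rose and 1 fell with siHNF4A, with a median difference of 0.03. TRIB3, a pseudokinase that restrains ATF4 and is induced by it, had signals of 1141, 1433 and 1226 with siControl and 979, 887 and 1044 with siHNF4A. Every siHNF4A array was below every siControl array, and the gene fell by 0.38 ± 0.11 (adjusted p = 0.0495, limma). That call was lost with quantile normalization, with scaling to the median, with a floor at the 40th percentile and with a pseudocount. Without either 1.5 h array the difference was -0.23, and without either 24 h array it was -0.46, with no call in either case. ASNS, which makes asparagine, had 503, 483 and 335 with siControl and 554, 607 and 546.5 with siHNF4A. These groups did not overlap, and the difference of 0.39 ± 0.13 did not pass (adjusted p = 0.0792, limma). ATF4 itself differed by 0.20 ± 0.08 (adjusted p = 0.176, limma) and DDIT3, the factor CHOP, by -0.07 ± 0.21, with 87.4, 82.6 and 79.3 with siControl and 115.1, 64.6 and 66.9 with siHNF4A. At 0, 1.5 and 24 h the median difference of the ATF4-type genes was 0.14, -0.13 and 0.01, and that of the chaperone, folding and degradation genes 0.21, 0.34 and 0.19.

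Other probe sets above the floor of the called members had the same direction of the mean over the times in 7 of 7 cases, from 4 genes. Without the siControl 0 h array 10 members were called, with ASNS higher and SLC7A5 lower among them and PDIA6 not. Without the siHNF4A 0 h array 9 were called, with the same additions and without PDIA6 (0.25) and HYOU1 (0.44). In both of these fits limma set an infinite prior, so a gene's own spread did not enter. Their counts therefore cannot be set against those of the full fit. Without either 1.5 h array 2 members were called, PDIA6 (0.38) and HYOU1 (0.81), and without either 24 h array 2, DNAJB9 (0.75) and XBP1 (1.03). Over all genes the 961 siRNA calls fell as well, to 573 without the siControl 1.5 h array and 584 without the siHNF4A 1.5 h array. They fell to 223 without the siControl 24 h array and 232 without the siHNF4A 24 h array. Quantile normalization left 6 members called, all higher. The calls of HSPA5 (0.19, adjusted p = 0.0838, limma), PDIA6 (0.23, adjusted p = 0.099, limma) and TRIB3 were lost with it. Scaling to the array median left 8 members higher and none lower, and moved the split over all genes from 465 higher and 496 lower to 558 and 385. With probe sets averaged per gene, with no filter on dim genes or without limma's intensity trend none of the 9 was called.

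After 24 h with TGF-beta, 4 of the 35 tested members rose and 5 fell against 0 h over both siRNAs, where 7.22% of all tested genes were called higher and 7.82% lower. Among genes with a mean signal above 100 which included 8 of the 9 called members, these shares were 9.08% and 10.8%. The chaperone, folding and degradation genes divided into 2 that rose and 2 that fell, with a median of -0.07 against -0.03 over all genes. The ATF4-type genes divided into 2 that rose and 3 that fell of 13, with a median of -0.34. No sensor was called.

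The deepest fall was that of CRELD2, a secreted ER protein induced by unfolded protein. Its signals were 587, 649 and 280 with siControl and 675.5, 698 and 264 with siHNF4A. Both 24 h arrays were below the other 4, and the gene fell by 1.21 ± 0.14 (adjusted p = 6.91e-05, limma). SDF2L1, which works with DNAJB11 at BiP, had signals of 449.8, 427 and 295 with siControl and 521, 543 and 273 with siHNF4A. Its 24 h arrays were again the lowest, and it fell by 0.77 ± 0.16 (adjusted p = 0.0043, limma).

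In the same block EDEM1 rose, with signals of 266.5, 274.5 and 399 with siControl and 228, 264 and 441 with siHNF4A. Both 24 h arrays were above the other 4, and the difference was 0.77 ± 0.16 (adjusted p = 0.0055, limma). HERPUD1, whose signals are given above, rose by 0.41 ± 0.12 (adjusted p = 0.0366, limma). Its 24 h array was the highest of each arm. HSPA5, at -0.04 ± 0.09, and HSP90B1, at 0.02 ± 0.11, were not called.

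Among the ATF4-type genes, those that fell act in amino acid supply. PHGDH, the first enzyme of serine synthesis, had signals of 339, 366 and 203 with siControl and 374, 305.5 and 162 with siHNF4A, and fell by 0.97 ± 0.17 (adjusted p = 0.0017, limma). PSAT1, the next enzyme of that pathway, had signals of 2821, 2866 and 2244 with siControl and 2889, 2956 and 2255 with siHNF4A, and fell by 0.34 ± 0.10 (adjusted p = 0.0325, limma). For both genes the 2 arrays at 24 h were the lowest of the 6.

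SLC7A5, a transporter of large neutral amino acids, had signals of 1504, 1741 and 1025 with siControl and 1829, 1238 and 775 with siHNF4A. Its 24 h arrays were the lowest of the 6, and it fell by 0.90 ± 0.16 (adjusted p = 0.0016, limma). Its heavy-chain partner SLC3A2 was lower at 24 h in both arms without passing the test (-0.39 ± 0.15, adjusted p = 0.0878, limma). ASNS and CEBPG, a dimer partner of ATF4, were not called either, at -0.30 ± 0.16 and -0.38 ± 0.17. A second probe set of CEBPG went the other way, at 0.14.

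PPP1R15A and STC2 rose. PPP1R15A encodes GADD34, which directs the phosphatase that reverses eIF2 phosphorylation, and its signals were 54.1, 68.7 and 78.3 with siControl and 54.8, 50.6 and 150.8 with siHNF4A. The siHNF4A 24 h array stood far above the other 5, and the difference over both arms was 1.00 ± 0.30 (adjusted p = 0.0374, limma). STC2, a secreted glycoprotein, had signals of 81.7, 131.8 and 136.2 with siControl and 110.5, 120.6 and 192.7 with siHNF4A, and rose by 0.77 ± 0.22 (adjusted p = 0.0292, limma). Its 24 h arrays were the 2 highest of the 6. A second probe set of STC2 differed by 0.10 and that of PPP1R15A by 0.68. VLDLR, a lipoprotein receptor, had 22.6, 20.1 and 40.7 with siControl and 30.7, 26.5 and 46.7 with siHNF4A, highest at 24 h in both arms, and did not pass (0.73 ± 0.30, adjusted p = 0.129, limma).

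**Figure D3:**
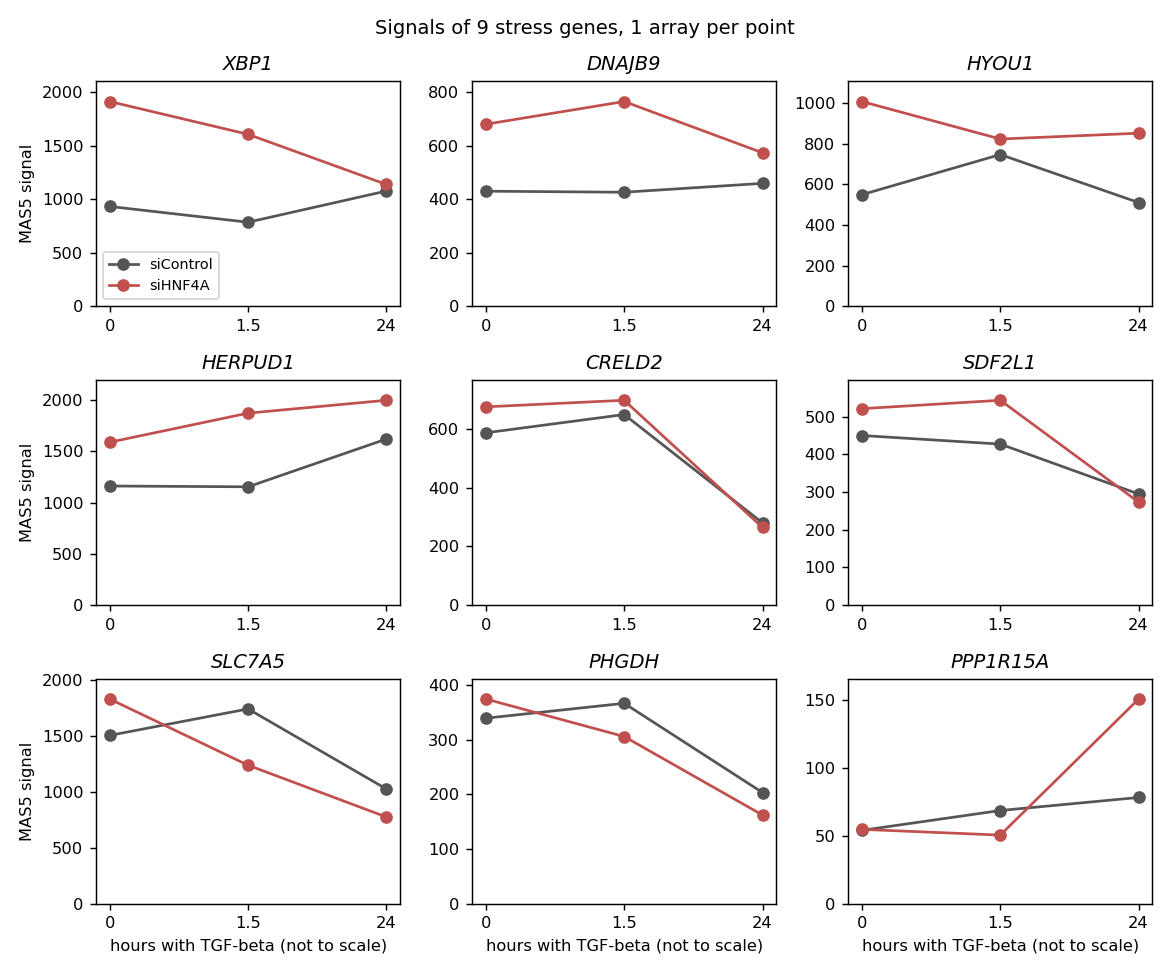
MAS5 signals (linear, from 0) of 9 members against hours with TGF-beta (positions not to scale), 1 array per point, siControl grey and siHNF4A red. CRELD2 and SDF2L1 drop to 24 h in both arms, the arms of XBP1 meet at 24 h, and PPP1R15A stands at 150.8 on the siHNF4A 24 h array.

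The difference between the single arrays at 24 h and 0 h shared a direction between the arms for 26 of the 35 members, and 69.6% of all tested genes did so. On the chosen probe sets the 13 ATF4-type genes all did, 5 upward and 8 downward. Some of these differences were small, such as ASNS in siHNF4A (-0.02) and ATF5 in siControl (-0.05). Other probe sets above the floor went the opposite way in both arms for CEBPG and TRIB3. For ATF5 and STC2 they differed in direction between the arms, and for PSAT1 and PPP1R15A they shared the direction of the chosen one. Past 2-fold lay CRELD2 in siControl, and in siHNF4A PPP1R15A upward and CRELD2, PHGDH, ATF5 and SLC7A5 downward. ATF5, a stress factor related to ATF4, had 81.3, 85.5 and 78.5 with siControl and 91.2, 80.3 and 41.5 with siHNF4A. Of all tested genes 2.6% fell 2-fold in siControl, and in siHNF4A 4.5% rose and 4.61% fell by that much.

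The calls at 24 h depended on which arrays were in the fit. Over all tested genes too, fewer were called whichever 24 h array was left out, so losses in those fits were not particular to the members. The fits without a 0 h array again had an infinite prior, so their counts cannot be set against those of the full fit. Without the siHNF4A 24 h array CRELD2 alone was called (-1.09), and PPP1R15A stood at 0.42. Without the siHNF4A 0 h array the called members were CRELD2 (-1.11) and SDF2L1 (-0.72), with SLC7A5 at -0.53. Without the siControl 0 h array 8 were called, with HERPUD1, PSAT1 and STC2 lost and CALR and XBP1 called lower. Without the siControl 24 h array 7 were called, with XBP1 lower among them and HERPUD1, PSAT1 and STC2 not, and PPP1R15A stood at 1.58. The call of HERPUD1 was lost with quantile normalization and with scaling to the median, and that of PSAT1 with the latter. Without limma's intensity trend CRELD2 alone passed, and with no filter on dim genes none did. Other probe sets of the called members above the floor shared the direction of the mean over both arms in 3 of 3 cases. That of PSAT1 fell in both arms. From 0 to 24 h, that of STC2 went from 116.6 to 112.9 with siControl and from 124.4 to 146.8 with siHNF4A. That of PPP1R15A went from 36.9 to 37.5 with siControl and from 34 to 85.4 with siHNF4A.

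**Figure D4:**
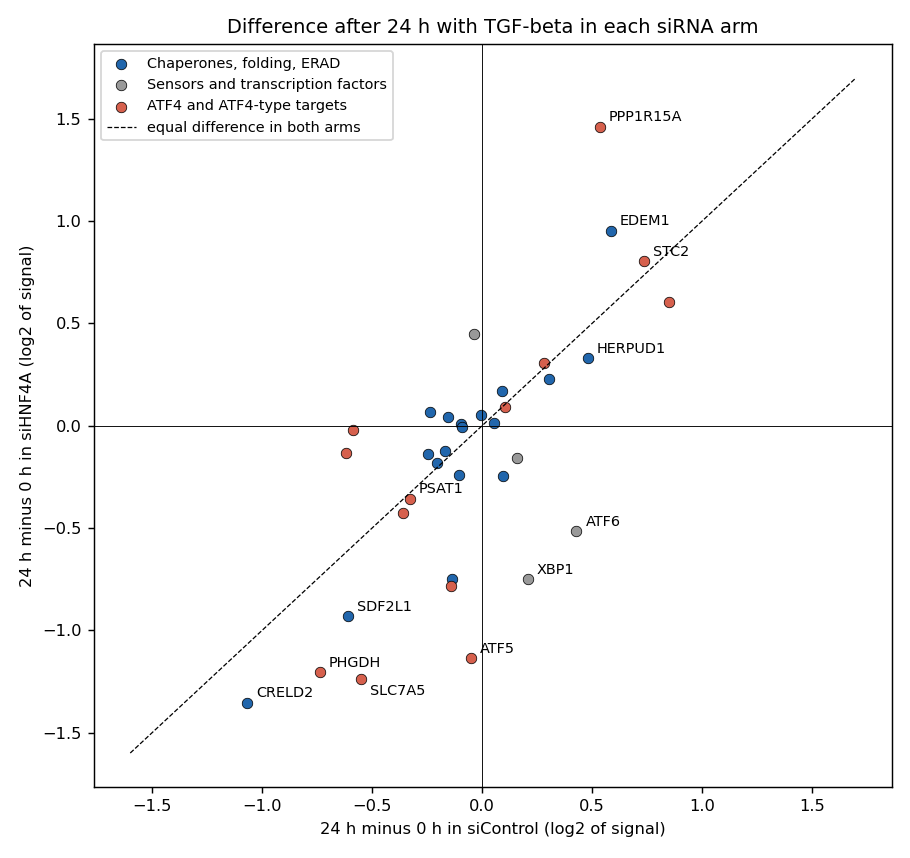
The 24 h minus 0 h difference of each tested member (log2 of signal) in siControl (x axis) and siHNF4A (y axis), coloured by role, 1 pair of arrays per axis; the dashed line marks equal differences. CRELD2, SDF2L1, PHGDH and SLC7A5 lie in the lower left, and XBP1 (0.21 and -0.75) and ATF6 (0.43 and -0.52) have opposite signs.

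Against 1.5 h, a comparison that shares its 24 h arrays with the one above, 1 member rose at 24 h and 5 fell, where 6.4% of all tested genes were called higher and 7.01% lower. EDEM1 rose by 0.64. CRELD2 fell by 1.31 ± 0.14 (adjusted p = 3.59e-05, limma), PHGDH by 0.88, SDF2L1 by 0.76, SLC7A5 by 0.72 and PSAT1 by 0.37. CEBPG (-0.53), VLDLR (0.92) and PPP1R15A (0.88) had adjusted p of 0.0527, 0.0603 and 0.0701 in limma. The second probe set of CEBPG had 261.5 and 236.3 at 1.5 and 24 h with siControl and 193.6 and 211.8 with siHNF4A. Without the siHNF4A 24 h array 1 member was called, CRELD2 (-1.19). Without the siControl 1.5 h or the siControl 24 h array 4 were called, SDF2L1, CRELD2 and PHGDH lower and PPP1R15A higher (1.34 and 1.46). Without the siHNF4A 1.5 h array 4 were called, HYOU1, CRELD2, PHGDH and SLC7A5, all lower. Without either 0 h array 8 were called, with PPP1R15A higher and CEBPG lower in addition, again with an infinite prior. Over all tested genes too, fewer were called whichever 1.5 h or 24 h array was left out.

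At 1.5 h with TGF-beta no member was called against 0 h, and 0.101% of all tested genes (12 of 11921) were. By limma's unadjusted p under 0.05, PDIA6 (0.30), ATF6 (0.54) and ATF4 (0.24) were the 3 members below that line, where 3.05% of all tested genes were. The ATF6 value moved to 0.27 without the siControl 0 h array, 0.38 without the siHNF4A 1.5 h array, 0.82 without the siHNF4A 0 h array and 0.03 with its probe sets averaged. Leaving out the siControl 0 h array likewise gave no called member. The simulated data for this comparison recovered 74.5% of 2-fold changes, with 10 false calls. They held normal noise and no time-dependent siRNA effect, so recovery in the real data may be lower. No member differed by 2-fold between single arrays at 1.5 h and 0 h in either arm, where 1.69% of all tested genes did in siControl and 2% in siHNF4A.

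The siRNA difference at 24 h was also set against its mean at 0 and 1.5 h, which tests whether it depended on the time with TGF-beta. No member and none of the 11921 genes passed, so the background was 0%. At an unadjusted p under 0.05 were 4 members, XBP1, ATF6, ATF5 and PPP1R15A, and 4.54% of all tested genes (limma). XBP1 had a difference of -0.95 ± 0.21 (adjusted p = 0.662, limma). PPP1R15A had 1.16 ± 0.44, ATF5 -0.96 ± 0.42 and ATF6 -0.87 ± 0.35, each with an adjusted p of 0.999 in limma. The simulated data recovered 26.5% of 2-fold and 85.5% of 4-fold changes in this fit, so a 2-fold dependence would mostly be missed. ATF6 had signals of 124.6, 191.6 and 167.7 with siControl and 131.8, 182.1 and 92.2 with siHNF4A, lowest on the siHNF4A 24 h array, and the mean of its probe sets gave a smaller difference of -0.21.

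Other genes of the same pathways came from lists of ER and integrated stress response genes. Both lists were chosen with earlier results of these data known, so their shares of called genes are a description only. Of 40 other ER genes tested, 3 rose with siHNF4A and none fell (7.5% called, median 0.08), and 8.06% of all tested genes were called. DNAJC10, an ER disulfide reductase with a J domain, had signals of 581, 622.5 and 772.5 with siControl and 1028, 1153 and 1283 with siHNF4A, and rose by 0.81 ± 0.10 (adjusted p = 0.000173, limma). SSR1, of the translocon-associated complex, rose by 0.61 and SELENOK, a selenoprotein of the ER membrane, by 0.45. At 24 h KDELR3, a receptor that returns ER proteins from the Golgi, rose by 0.77, CREB3, a membrane-held transcription factor, by 0.59, and SEC11C, of the signal peptidase, fell by 0.58. That is 7.5% of the list (median 0.06), and 15% of all tested genes were called at 24 h. None was called at 1.5 h against 0 h, and against 1.5 h KDELR3 alone rose at 24 h (2.5%, against 13.4% of all tested genes). Without the siControl 0 h array the siRNA counts were the same 3 and 0, and the call of CREB3 at 24 h was lost (0.50).

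Of 41 other genes of the integrated stress response, 7 rose and 2 fell with siHNF4A (22% called, median 0.10). Of all tested genes 3.9% rose and 4.16% fell (8.06% called). ATF3, a stress-induced transcription factor, had signals of 45.3, 72.8 and 60.1 with siControl and 86.4, 84 and 196.1 with siHNF4A, and rose by 0.95 ± 0.25 (adjusted p = 0.0276, limma). MTHFD2, a mitochondrial folate enzyme, had 1446, 1306 and 1311 with siControl and 2051, 2391 and 2159.5 with siHNF4A, and rose by 0.70 ± 0.10 (adjusted p = 0.000412, limma). GDF15, a stress-induced cytokine, had 1734.5, 2330 and 3287.5 with siControl and 2552, 2912 and 7350.2 with siHNF4A, and rose by 0.68 ± 0.12 (adjusted p = 0.00336, limma). The siHNF4A array was the higher at every time for these 3 genes, while AARS1, an alanyl-tRNA synthetase, fell by 0.40 and TNFRSF10B, a death receptor, by 0.42. Without the siControl 0 h array 5 rose and none fell (12.2%, against 7.89% of all tested genes), with AARS1 at -0.45 and TNFRSF10B at -0.31.

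At 24 h against 0 h, 5 of those 41 genes rose and 1 fell (14.6% called, median -0.03), and 15% of all tested genes were called. DDIT4, an inhibitor of mTORC signalling that many stresses induce, rose by 1.80, INHBE, a liver activin subunit, by 1.34 and GDF15 by 1.22, while YARS1, a tyrosyl-tRNA synthetase, fell by 0.49. DDIT4 was also the single gene of the list called at 1.5 h, with 179.8, 1003 and 656 with siControl and 362, 1109.8 and 1199.6 with siHNF4A. It rose by 2.05 ± 0.18 (adjusted p = 7.74e-05, limma). Without the siControl 0 h array DDIT4 differed by 1.80 at 1.5 h and remained called, and at 24 h 5 rose and none fell (12.2%, against 12% of all tested genes). Against 1.5 h, 4 of the 41 rose at 24 h and 3 fell (17.1%, against 13.4% of all tested genes), and without that array 5 and 3 did. KLHL24 (1.63), GDF15 (0.92) and INHBE (0.76) were the highest, and the cystine transporter SLC7A11 fell by 0.58, YARS1 by 0.45 and IARS1 by 0.34.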

How the data were processed

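The authors deposited intensities, linear MAS5 signals of each probe set. The submitters' processing notes name MAS5 5.0 and GCOS. Symbols came from the platform annotation: 41097 of 54675 probe sets had 1 symbol, and 1801 had several and were not named. Signals were raised to at least 12.9, the floor, and converted to log2 with no further scaling, so differences of dim genes are understated. The number of arrays limits the precision.

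limma 3.58.1 in R 4.3.3 (intensity trend, Benjamini-Hochberg, threshold 0.05) fitted siRNA and time as additive terms with 2 residual and 12.6 prior degrees of freedom. A second fit added the siRNA effect at 24 h, with 1 residual and 8.40 prior. Fits without a 0 h array had 1 residual degree of freedom and an infinite prior, so a gene's own spread did not enter their calls. In the siRNA comparison, leaving out 1 array also left its partner at that time without weight. p-values measure the spread between these arrays only, taken mostly from all tested genes by signal and less from the gene itself. A time-dependent siRNA effect counts as error. On simulated data with 200 of 11921 genes changed 2-fold, the step recovered 87.5% for the siRNA, 65.5% for 24 h against 0 h and 66.5% for 24 h against 1.5 h. False calls numbered 12, 3 and 13. The noise was normal, at the spread that limma fitted, and these 3 simulations held no time-dependent siRNA effect. Recovery in the real data may therefore be lower.

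The members and lists were chosen with earlier results of these data known. Members with a call or a 2-fold difference got their 6 signals, as did HSP90B1, ASNS, DDIT3 and VLDLR, chosen after their values were seen. Of each other list up to 3 called genes per direction and comparison were named. Promoter windows came from RefSeq and 37 of 38 members matched. Protein sequences were not used here. Alternatives were other scalings, floors, a pseudocount, other probe set rules, no filter, no trend and arrays left out. Python 3.11.15, numpy 2.4.6, pandas 2.3.3 and matplotlib 3.10.9 made tables and figures.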

Additional observations from a re-analysis of the deposited data

How the results depend on the processing

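Of the 9 called for the siRNA, 0 were left with probe sets averaged per gene, 0 with no filter on dim genes, 0 without the intensity trend and 5 without probe sets ending in _x_at or _s_at. Over all genes the 961 siRNA calls became 227, 0 and 45 under the first 3 of these. Of the 9 at 24 h against 0 h, 5 were left without those probe sets, 0 with no filter and 1 without the trend. Of the 6 at 24 h against 1.5 h, 0 were left with no filter, and without the trend 2 members were called, CRELD2 of the 6 and VLDLR in addition. Leaving out 1 array or 1 pair gave 2 to 9 siRNA calls, or 10 without the siControl 0 h array (2 without either 1.5 h array or either 24 h array), 1 to 10 at 24 h against 0 h (1 without the siHNF4A 24 h array, 2 without the siHNF4A 0 h array) and 1 to 8 against 1.5 h (1 without the siHNF4A 24 h array). Leaving out single arrays other than siControl 0 h, and leaving that one out for the other lists, was chosen after seeing the data. Quantile normalization, median scaling, other floors and the pseudocount kept these counts within 1.5 times. The siRNA count lay at that limit with quantile normalization (6 of 9, without HSPA5, PDIA6 and TRIB3). ATF6 at 24 h against 1.5 h, which was not called (-0.59), reversed to 0.12 with its probe sets averaged. For single members, 409 alternative values kept direction and side of the threshold, 156 lost the call, 14 gained one and 1 reversed. The siRNA difference at 24 h against the earlier times gave no member under any alternative run. It could not be fitted with an array left out, for lack of residual degrees of freedom. Over all genes it gave 639 calls with no filter and 24 with the pseudocount against 0. The additive fit already compares the siRNAs within each time, and the labels give no replicate numbers for a further block. Signals near the floor limit CREB3L3, CHAC1 and VLDLR.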
